A study of Homo sapiens with 6 samples.

Results

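HOXB2, HOXB3, HOXB4, HOXB5, HOXB6, HOXB7 and HOXB9, 7 genes of the HOXB cluster on chromosome 17, were examined together with MEIS1, a partner gene on chromosome 2, in multiple myeloma cells given a miR-10a mimic. The 8 genes were taken by gene symbol from the platform's probe annotation, out of 14884 genes that it names, and each had 1 probe set. Expression was measured with 6 whole-transcript arrays, 1 for each combination of 3 established lines of malignant plasma cells (KMS11, RPMI8226 and U266) and 2 treatments. The cells received 100 nM of miR-10a mimic or 100 nM of scrambled control (Negative Control 1) with the HiPerFect reagent, and were collected 48 h later. Nothing in the labels says that the arrays of a line came from independent cultures, so p-values measure the spread between these arrays and lines, which may be partly technical. Lines are given in the order KMS11, RPMI8226, U266.

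HOX genes encode transcription factors with a DNA-binding homeodomain. They lie in clusters, in which the order of genes along the chromosome follows the order in which they act along the body axis. MEIS1 encodes a homeodomain protein of the TALE class that binds DNA together with HOX and PBX proteins, and it is best known in blood for its part in acute leukaemias with high HOX expression. Several HOXB genes act in normal blood stem and progenitor cells. The gene of miR-10a sits inside the HOXB cluster, and members of the miR-10 family have been reported to repress HOX transcripts in zebrafish and in human cells. The comparison asks how these genes stood in each line and with the mimic.

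The sequences below, taken from RefSeq (GRCh38.p14), are those of miR-10a and of some other microRNAs whose genes were named on the array. These others come from HOX clusters (miR-196) or from the miR-99 and miR-100 group. The sequence of the mimic itself is not shown. Whether array values of a microRNA gene follow its mature form was not tested. The hairpin of MIR10A lies at chr17:48579838-48579947 on the minus strand, with the 5p and 3p arms in capitals.
MIR10A hairpin: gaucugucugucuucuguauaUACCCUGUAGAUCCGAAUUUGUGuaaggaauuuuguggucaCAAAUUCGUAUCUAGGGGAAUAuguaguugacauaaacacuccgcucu
In the mature forms below, capitals mark the seed, bases 2 to 8, which directs pairing with target transcripts.
hsa-miR-10a-5p (chr17:48579904-48579926): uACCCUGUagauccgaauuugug
hsa-miR-196a-5p (MIR196A1, chr17:48632532-48632553): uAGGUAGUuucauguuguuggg
hsa-miR-196b-5p (MIR196B, chr7:27169528-27169549): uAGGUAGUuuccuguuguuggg
hsa-miR-99a-5p (MIR99A, chr21:16539101-16539122): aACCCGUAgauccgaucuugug
hsa-miR-100-5p (MIR100, chr11:122152275-122152296): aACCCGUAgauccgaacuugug

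The seed shared by miR-99a and miR-100 matched that of miR-10a-5p at 4 of 7 positions and the miR-196 seed at 3 of 7. In the reference annotation MIR10A lies between HOXB4 and HOXB5 and within the interval of HOXB3. MIR196A1, the other microRNA gene followed inside the cluster, lies between HOXB9 and HOXB13. MIR10A itself was not analysed here, and uptake of the mimic was not measured. Of the 8 named microRNA genes of the HOX clusters and the miR-99 and miR-100 group, 4 were lower and 4 higher with mimic. Their median change was 0.02 log2 units, and limma called 0 of them at an adjusted p of 0.05, as it called 0 of all 14884 genes. MIR10B, the other miR-10 gene and chosen for mention after its values were seen, stood at 2.12, 1.98 and 1.93 log2 units with mimic and at 2.02, 2.15 and 2.16 with control. MIR196A1 stood at 2.81, 3.31 and 2.99 log2 units with mimic and at 3.33, 3.27 and 2.84 with control. The 1 microRNA gene called between lines was MIR99A, which averaged 3.51 in KMS11, 4.29 in RPMI8226 and 3.65 in U266 (adjusted p = 0.00452 in limma's F test).

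Values were log2 expression levels, and the array medians ranged from 3.61 to 3.66. Across the named genes, correlations were 0.994 to 0.995 within a line and 0.9 to 0.921 between lines. Of the plasma cell markers, 4 of 6 were named: XBP1 stood between 9.34 and 9.65 and IRF4 between 10.26 and 10.89 in all 6 arrays, whereas CD38 reached 9.90 and 9.99 in RPMI8226 but lay between 3.80 and 4.92 in KMS11 and U266. SDC1, the plasma cell surface proteoglycan also called CD138, ranged from 5.52 in KMS11 to 9.49 in U266. Of 4 B cell markers 2 were named, PAX5, at 3.95 to 4.18, and BLK, at 4.49 to 6.61 with its highest levels in RPMI8226. All 4 haematopoietic progenitor markers (CD34, KIT, FLT3 and GATA2) were named and stayed between 2.54 and 4.32. DCN, the 1 named of 4 stromal markers, stayed between 1.98 and 2.26, and CD14 and LYZ, the 2 named of 4 T cell and myeloid markers, between 2.31 and 2.83. A part of any of these markers in the results on the HOXB genes was not tested. Without detection calls in the table, signal over background could not be judged for any gene. Levels of different genes come from different probes and cannot be set against one another. HOX genes also share their homeobox, and reading of one gene's RNA by another's probes was not tested.

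The genes at the HOXB2 end of the cluster had levels that hardly separated the lines. HOXB2, which patterns the hindbrain in mice, stood at 3.02, 3.10 and 2.96 log2 units with mimic and at 3.38, 3.51 and 3.09 with control. HOXB3, active in hindbrain and blood progenitors, stood at 4.49, 4.70 and 4.49 with mimic and at 4.43, 4.46 and 4.44 with control. HOXB4, known for expanding mouse blood stem cells when overexpressed, stood at 3.02, 3.53 and 3.23 with mimic and at 3.38, 3.48 and 3.48 with control. For these 3 genes the arrays of any 2 lines overlapped, except that RPMI8226 lay above U266 for HOXB2 and above KMS11 for HOXB4.

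HOXB5 and HOXB6 lie on the far side of MIR10A and overlap the antisense transcript HOXB-AS3 in the annotation. HOXB5, linked to endothelial differentiation, stood at 2.44, 2.50 and 2.44 with mimic and at 2.39, 2.59 and 2.45 with control. HOXB6, active in early blood progenitors, stood at 2.71, 2.75 and 2.62 with mimic and at 2.67, 2.84 and 2.64 with control. For both genes the 2 RPMI8226 arrays were the highest of the 6. For HOXB6 both KMS11 arrays also lay narrowly above both U266 arrays, so no 2 lines overlapped. The line differences of HOXB5 and HOXB6 did not pass the F test over lines. A share of HOXB-AS3 in these signals was not tested. HOXB-AS3 stood between 3.69 and 3.90.

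HOXB7 and HOXB9, farther from MIR10A, separated U266 from the other lines by wider gaps than HOXB6 did. HOXB7, reported in myeloma cells in connection with angiogenesis, stood at 5.15, 5.16 and 4.82 with mimic and at 5.04, 5.14 and 4.68 with control. HOXB9, a gene of thoracic patterning in mice, stood at 7.16, 7.75 and 4.80 with mimic and at 7.06, 7.96 and 4.34 with control. RPMI8226 was the highest line for HOXB9, KMS11 followed, and both U266 arrays lay far below, with no overlap between any 2 lines. HOXB6 had the same order of lines without overlap, at much smaller differences. MEIS1 took another order of lines, at 5.41, 3.85 and 4.38 with mimic and 5.75, 4.27 and 4.69 with control, again with no overlap between lines. The share of all genes without overlap between lines was not counted.

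**Figure D1:**
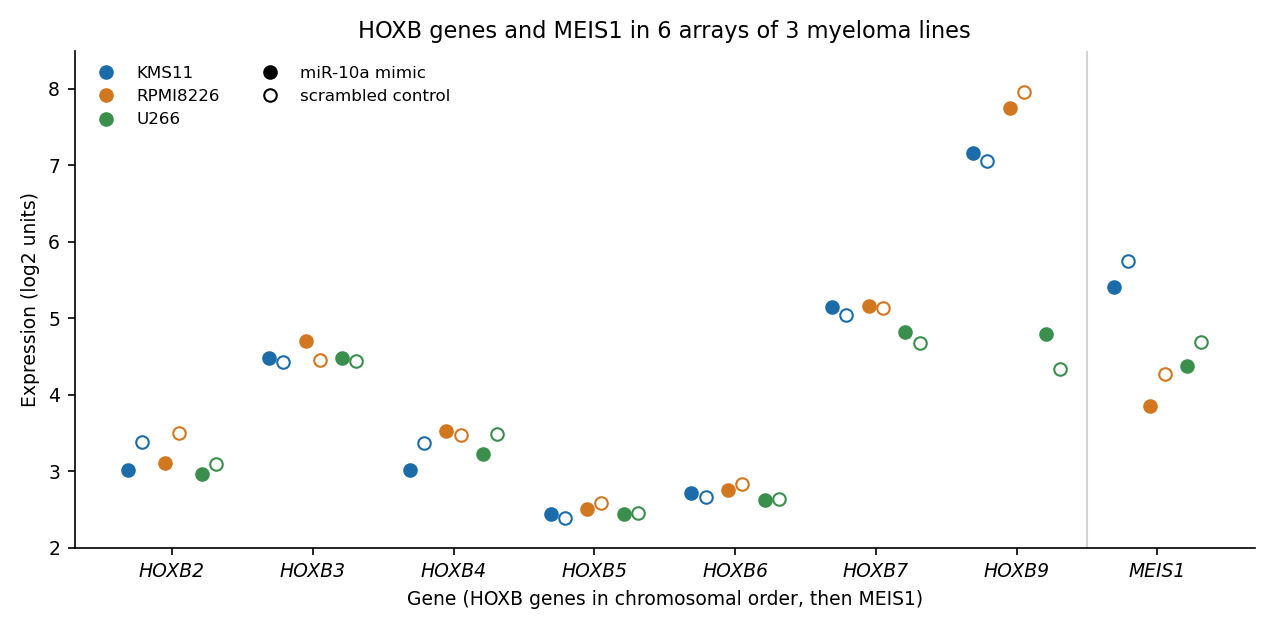
Log2 expression of the 7 HOXB genes, in chromosomal order, and of MEIS1 in each of the 6 arrays; filled points are miR-10a mimic, open points scrambled control. HOXB9 separates U266 (4.34 and 4.80) from the other lines (7.06 to 7.96), and MEIS1 is highest in KMS11. HOXB2 to HOXB6 are nearly level between lines, at mean signals below the median of named genes. Heights are to be compared within a gene.

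Between lines, 3 of the 8 genes differed: HOXB9, MEIS1 and, more narrowly, HOXB7. The test was limma's F test over the 3 lines with treatment in the model, adjusted over all 14884 genes, which called 50.8% of them, so that a call between these lines was common and 3 of 8 is not above the background. HOXB9 had an adjusted p of 4.49e-05, MEIS1 of 0.00013 and HOXB7 of 0.0285. The remaining 5 genes, HOXB2 to HOXB6, had adjusted p-values from 0.186 to 0.58, and their line means spanned 0.12 to 0.31 log2 units. By mean signal all 5 lay below the median of named genes, 4.70 log2 units, whereas HOXB7, HOXB9 and MEIS1 lay at or above it. Calls were commoner at or above the median, which divides the named genes evenly. A separate fit of only those genes, with its own adjustment, called 6135, against 7561 in the fit of all 14884 genes. A part of signal level in the split between the 5 and the 3 genes was not tested. The 95% intervals of all pairwise differences of these 5 genes lay between -0.62 and 0.55, so a difference of more than 1.54-fold lay outside every interval, on an array scale that can compress changes of weakly expressed genes. The median span over the 8 genes was 0.29 log2 units, against 0.46 over all named genes.

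HOXB9 carried the widest line differences of the 8 genes. It was 3.29 log2 units higher in RPMI8226 than in U266 (95% interval 2.89 to 3.69), or 9.77-fold, with limma's adjusted p = 3.12e-05, in a comparison that called 39% of all genes. It was 2.54 higher in KMS11 than in U266 (2.14 to 2.94), or 5.82-fold, with limma's adjusted p = 0.000105, where 37.1% of genes were called. KMS11 stood below RPMI8226 by a smaller margin, at a difference of -0.75 (-1.15 to -0.35) and limma's adjusted p = 0.0138, where 36.8% of genes were called. These 3 calls held under each of the 8 alternatives run on the pairwise differences.

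MEIS1 was highest in KMS11. The difference from RPMI8226 was 1.52 log2 units (95% interval 1.28 to 1.76), or 2.87-fold, with limma's adjusted p = 0.000101, and that from U266 was 1.05 (0.81 to 1.29), or 2.06-fold, with limma's adjusted p = 0.000428. RPMI8226 stood below U266 by -0.48 (-0.72 to -0.24), with limma's adjusted p = 0.00975. That last call was lost when treatment was left out of the model (limma's adjusted p = 0.0839), a fit that leaves the mimic difference within each line in the residual spread.

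HOXB7 was lower in U266 than in both other lines. KMS11 minus U266 was 0.35 log2 units (95% interval 0.10 to 0.59) with limma's adjusted p = 0.0367, and RPMI8226 minus U266 was 0.40 (0.16 to 0.64) with limma's adjusted p = 0.0205. KMS11 and RPMI8226 differed by -0.05 (-0.30 to 0.19), with limma's adjusted p = 0.742. The call over lines was lost with a variance trend (limma's adjusted p = 0.0539) and when all probe sets were tested (0.0732). It was also lost when U266 was left out (0.772), but that fit holds only KMS11 and RPMI8226 and is no separate check. The pairwise count was therefore 2 of 8 genes between KMS11 and RPMI8226 and 3 of 8 in each comparison with U266.

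**Figure D2:**
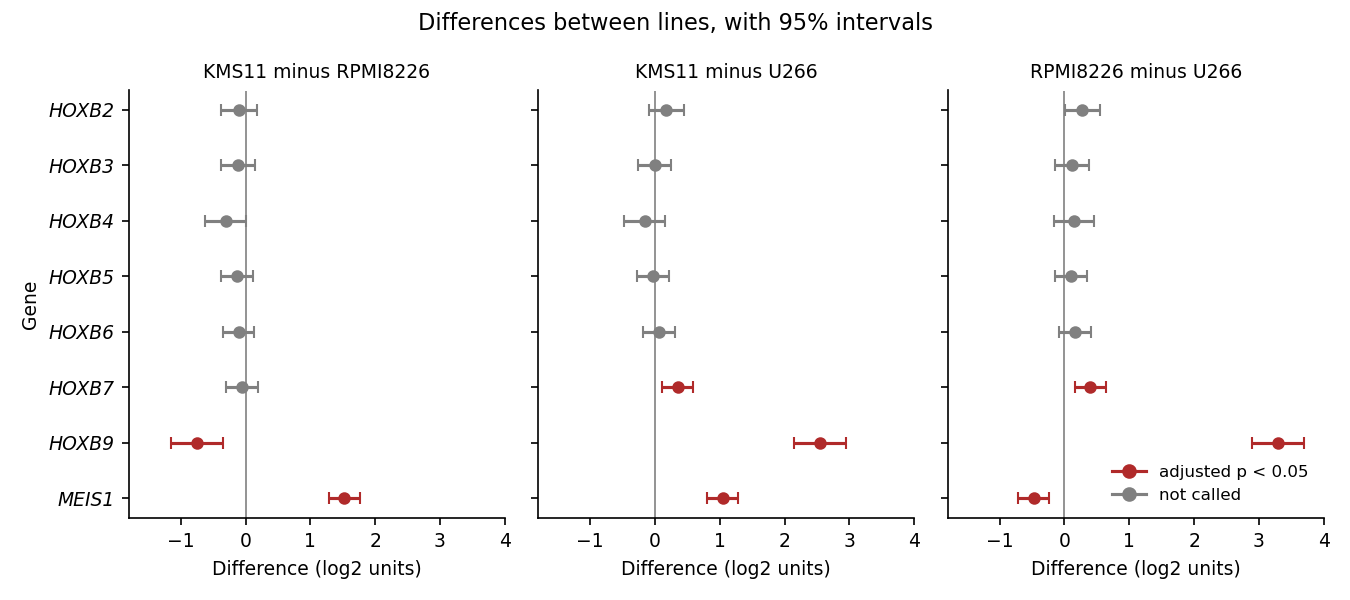
Pairwise differences between lines for the 8 genes in log2 units (points) with 95% intervals from limma; red marks an adjusted p under 0.05. HOXB9 differs by 2.54 and 3.29 from U266, MEIS1 by 1.52 and 1.05 between KMS11 and the other lines, and the intervals of HOXB3 to HOXB6 cross 0 in all 3 panels.

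The rest of the HOXB locus was set beside the HOXB9 pattern. Among 6 other named transcripts of the cluster (HOXB1, HOXB8, HOXB13, HOXB-AS3, MIR196A1 and PRAC1), levels ran from 2.59 to 3.93, and 1, HOXB1, was called between lines, with limma's adjusted p = 0.0253. HOXB1, the gene at the end beyond HOXB2, averaged 2.68 in KMS11, 3.20 in RPMI8226 and 2.72 in U266. HOXB8, the direct neighbour of HOXB9 on the side of HOXB7, stood at 2.88, 3.26 and 3.29 with mimic and at 2.98, 3.34 and 2.73 with control, and its adjusted p in limma's F test was 0.261. A difference between the line pattern of HOXB9 and that of its neighbours was not tested.

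Of a list of 8 genes on both sides of the cluster, 6 were named, and all 6 were called between lines, beside 50.8% of all genes. All 6 lay at or above the median signal of named genes, where calls were commoner. Other flanking genes on the array were not listed. SKAP1, a T cell adaptor gene on the HOXB1 side, stood at 7.66, 7.92 and 4.59 with mimic and at 7.35, 7.97 and 5.36 with control. It was lowest in the same line as HOXB9, with differences of 2.53 in KMS11 minus U266 and 2.97 in RPMI8226 minus U266 (limma's adjusted p = 0.000456 and 0.000201). NFE2L1, a transcription factor gene of proteasome control, and UBE2Z, a ubiquitin-conjugating enzyme gene, were also lower in U266, with RPMI8226 minus U266 at 0.72 and 0.79. CALCOCO2, an autophagy receptor gene, was highest in KMS11 (mean 7.30) and lowest in RPMI8226 (5.38). SNX11, a sorting nexin gene, was highest in U266 (7.23), and CBX1, encoding a heterochromatin protein, was lowest in RPMI8226 (6.37). The 6 listed genes did not share 1 order of the lines.

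**Figure D3:**
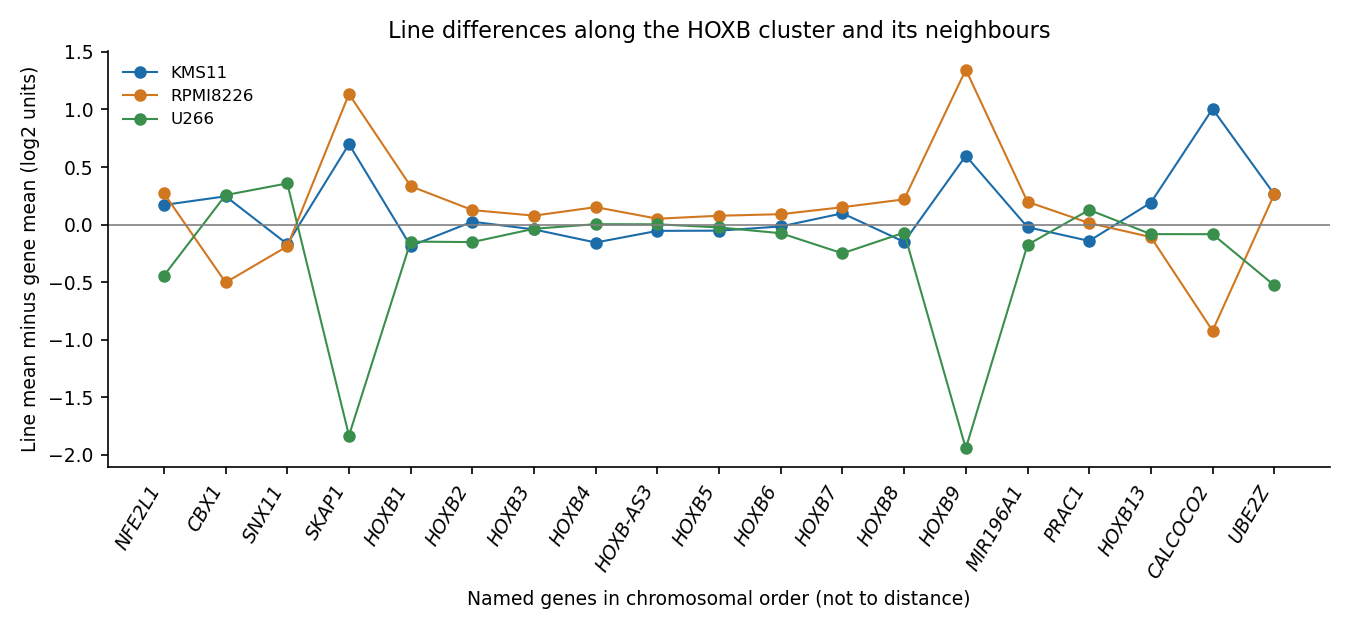
Mean of the 2 arrays of each line minus the gene's mean over the lines (log2 units) for the named genes across the HOXB cluster and its neighbours, in chromosomal order and not to distance. U266 drops at SKAP1 and at HOXB9. HOXB2 to HOXB6, with mean signals below the median of named genes, lie close to 0 in all 3 lines.

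The HOX genes of all clusters were then counted together, those of HOXB included. Of the 27 HOX genes named on the array, 4 (14.8%) were called between lines, HOXB1, HOXB7, HOXB9 and HOXD13, beside 50.8% of all genes. Among these only HOXD13 lies outside the HOXB cluster. Of the named genes listed for the HOXC and HOXD clusters, 0 of 8 and 1 of 9 were called. The HOXA cluster was scarcely covered, since 2 of its 13 listed genes were named, HOXA2 and HOTTIP. Only 3 of the 27, HOXB7, HOXB9 and HOXC12, lay at or above the median signal of named genes, where calls were commoner. A part of signal level in the lower share was not tested. The 20 HOX genes outside the members had values between 2.23 and 5.18. HOXD13, a limb and posterior patterning gene, averaged 3.21 in KMS11, 2.70 in RPMI8226 and 2.73 in U266 (adjusted p = 0.0141 in limma's F test). HOXC12 lay between 5.15 and 5.18 in the 6 arrays.

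Among the TALE partners of HOX proteins, 3 of 7 named genes (42.9%) were called between lines, beside 50.8% of all genes. By signal, 4 of the 7 lay at or above the median of named genes. PBX3, whose product binds DNA with HOX and MEIS proteins, stood at 7.40, 3.81 and 4.72 with mimic and at 7.59, 3.59 and 4.87 with control. The order of lines was that of MEIS1, with PBX3 3.80 log2 units higher in KMS11 than in RPMI8226 and 2.71 higher than in U266 (limma's adjusted p = 1.16e-05 and 3.67e-05). MEIS2 ran otherwise, with U266 highest at 4.90, against 4.13 in KMS11 and 4.04 in RPMI8226. TGIF1, a TALE repressor gene, averaged 5.48 in KMS11, 4.91 in RPMI8226 and 4.06 in U266. PBX2 and PKNOX1, at means of 6.59 and 6.29, did not pass the F test (limma's adjusted p = 0.242 and 0.0988).

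Among regulators of HOX transcription, 8 of the 12 named activators (66.7%) and 9 of the 11 named Polycomb genes (81.8%) were called between lines. The share over all genes was 50.8%, and no test compared the lists with that share. By array signal, 10 of the 12 activators and all 11 Polycomb genes lay at or above the median of named genes, where calls were commoner. A separate fit of only the genes at or above it, with its own adjustment, called 6135, against 7561 in the fit of all genes. The called genes did not share 1 order of lines. KDM6A, which removes the repressive methyl mark of Polycomb from histone H3, stood at 7.96, 3.58 and 6.72 with mimic and at 8.02, 3.04 and 6.95 with control. KDM6B, its relative, averaged 6.96 in KMS11, 7.45 in RPMI8226 and 4.94 in U266, where it was lowest. KMS11 had the highest means of PSIP1, a tether of the KMT2A and menin complex (8.93), and of EZH2, the Polycomb methyltransferase (9.98). PSIP1 averaged 7.28 in RPMI8226 and 7.72 in U266, and EZH2 averaged 8.35 in RPMI8226. Of the other called activators, KMT2D and RBBP5 were highest in KMS11, WDR5 in RPMI8226 and CXXC1 in U266, while KAT7 was lowest in RPMI8226. Of the other called Polycomb genes, SUZ12, RING1 and ASXL1 had their highest means in KMS11 and EZH1, PCGF2 and CBX2 in RPMI8226, while PCGF1 was lowest in U266 and PHC1 in RPMI8226. No relation between these levels and the HOXB genes was tested, since 3 lines are too few.

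Genes of the HOX and MEIS1 programme known from leukaemia were called between lines in 10 of 14 cases (71.4%). The share over all genes was 50.8%, without a test of that difference, and 6 of the 14 lay at or above the median signal of named genes. CDK6, a cell cycle kinase gene, averaged 9.62 in KMS11, 8.40 in RPMI8226 and 5.94 in U266, MYB 7.24, 6.49 and 5.47 in the same order, and SOX4 6.69, 4.42 and 4.29. BCL2, the survival gene, followed the order of HOXB9, with 9.21 in KMS11, 9.94 in RPMI8226 and 8.29 in U266. Other called members ran otherwise. MEF2C, a transcription factor gene, was lowest in KMS11, at 4.65, against 5.39 in RPMI8226 and 5.50 in U266. SYK, a kinase gene, averaged 3.60 in KMS11, 5.95 in RPMI8226 and 3.51 in U266. ERG and KIT were also highest in RPMI8226, and GATA2 was lowest in U266. CAMK2D, another kinase gene, averaged 5.74 in KMS11, 3.41 in RPMI8226 and 6.09 in U266. FLT3, between 2.54 and 2.88, and CD34, between 3.01 and 3.78, were not called.

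The genes with the closest profile to HOXB9 were ATRNL1, an attractin-like gene, NIPAL2, a relative of magnesium transporter genes, and RB1, the retinoblastoma tumour suppressor gene. Likeness was the root mean square difference over the 6 arrays after each gene was centred on its own mean, and it was 0.201, 0.207 and 0.22 log2 units for these 3 genes. RB1 averaged 8.43 in KMS11, 9.46 in RPMI8226 and 5.96 in U266. For MEIS1 the closest were MID1, a ubiquitin ligase gene, SNX27, a sorting nexin gene, and CXorf65, at 0.109, 0.12 and 0.122. SNX27 averaged 8.82 in KMS11, 7.41 in RPMI8226 and 7.83 in U266. With 3 lines such likeness is mainly a likeness in the order and size of line differences, and it was sought among all 14884 genes. The other 6 genes spanned less than 1 log2 unit between lines and were not matched.

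**Figure D4:**
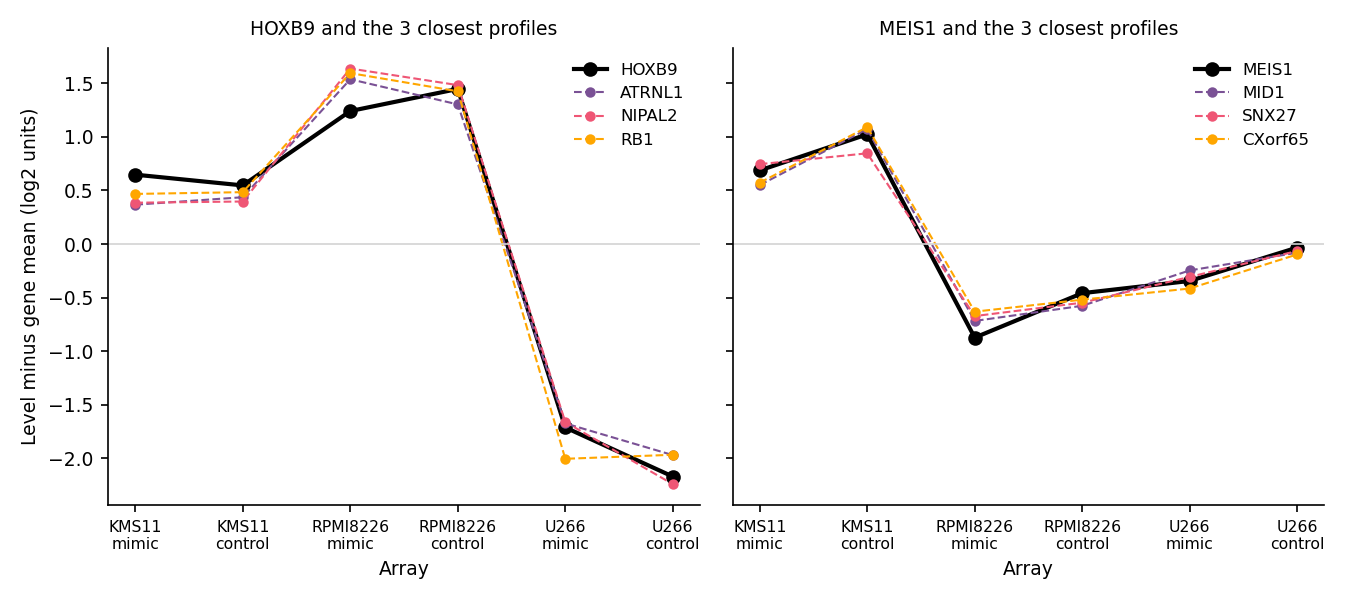
Levels of HOXB9 (left) and MEIS1 (right) in the 6 arrays, each minus the gene's mean, in log2 units, with the 3 genes of the closest profile as dashed lines. All 4 curves of each panel run close together, with U266 lowest on the left and KMS11 highest on the right.

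With mimic, no gene of the 8 was called. Limma with cell line as a block called 0 of 14884 genes (0%) at an adjusted p of 0.05, with 767 at an unadjusted p under 0.05. The smallest adjusted p among the 8 was 0.949, and 5 had a mean change below 0 and 3 above it. Their median change was -0.02 log2 units, against 0.0049 over all genes. The 95% intervals of the 8 mean changes lay between -0.55 and 0.45, so no bound was farther out than 1.46-fold lower or 1.36-fold higher. These intervals are not corrected for the number of genes.

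MEIS1 had the most even change of the 8. It averaged 4.55 ± 0.79 log2 units with mimic and 4.90 ± 0.76 with control (SD, n = 3 lines each), and the mimic and control arrays overlapped. Within lines it was lower with mimic in 3 of 3, by -0.34 in KMS11, -0.42 in RPMI8226 and -0.31 in U266. The mean change was -0.35 ± 0.05 (SD of 3 lines; 95% interval -0.55 to -0.16), or 1.28-fold lower, with an unadjusted p of 0.00433 and limma's adjusted p = 0.949. By unadjusted p it ranked 44th of 14884 genes, and no gene passed the adjusted threshold.

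HOXB2 was also lower with mimic in 3 of 3 lines. Its level averaged 3.03 ± 0.07 log2 units with mimic and 3.33 ± 0.21 with control (SD, n = 3 lines each), and the mimic and control arrays overlapped. Its change was -0.36 in KMS11, -0.40 in RPMI8226 and -0.13 in U266, a mean of -0.30 ± 0.15 (95% interval -0.52 to -0.07), with an unadjusted p of 0.018 and limma's adjusted p = 0.949. Of all genes, 11.7% were lower with mimic in all 3 lines, beside 2 of these 8, and 2.36% were lower with an unadjusted p under 0.05, beside the same 2 of 8.

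HOXB3 and HOXB7 were higher with mimic in 3 of 3 lines, as were 13.4% of all genes. HOXB3, which has been reported as a miR-10 target in zebrafish, changed by 0.05 in KMS11, 0.24 in RPMI8226 and 0.05 in U266, a mean of 0.12 ± 0.11 (95% interval -0.10 to 0.33), which was 0.050 without RPMI8226. Its mimic arrays, at 4.49 to 4.70, lay narrowly above its control arrays, at 4.43 to 4.46, and limma's adjusted p was 0.967. The share of all genes separated in this way was not counted. HOXB7 changed by 0.11 in KMS11, 0.02 in RPMI8226 and 0.14 in U266, a mean of 0.09 ± 0.07 (-0.11 to 0.29).

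The other 4 genes did not move the same way in all lines. HOXB4 changed by -0.35 in KMS11, 0.05 in RPMI8226 and -0.25 in U266, a mean of -0.19 ± 0.21 (95% interval -0.44 to 0.07), which was -0.30 without RPMI8226 and -0.10 without KMS11. HOXB9 changed by 0.10 in KMS11, -0.21 in RPMI8226 and 0.46 in U266, a mean of 0.12 ± 0.33 (-0.21 to 0.45), and no other gene of the 8 had a wider change in any single line than HOXB9 in U266. HOXB5 and HOXB6 changed by at most 0.09 in either direction in any line.

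**Figure D5:**
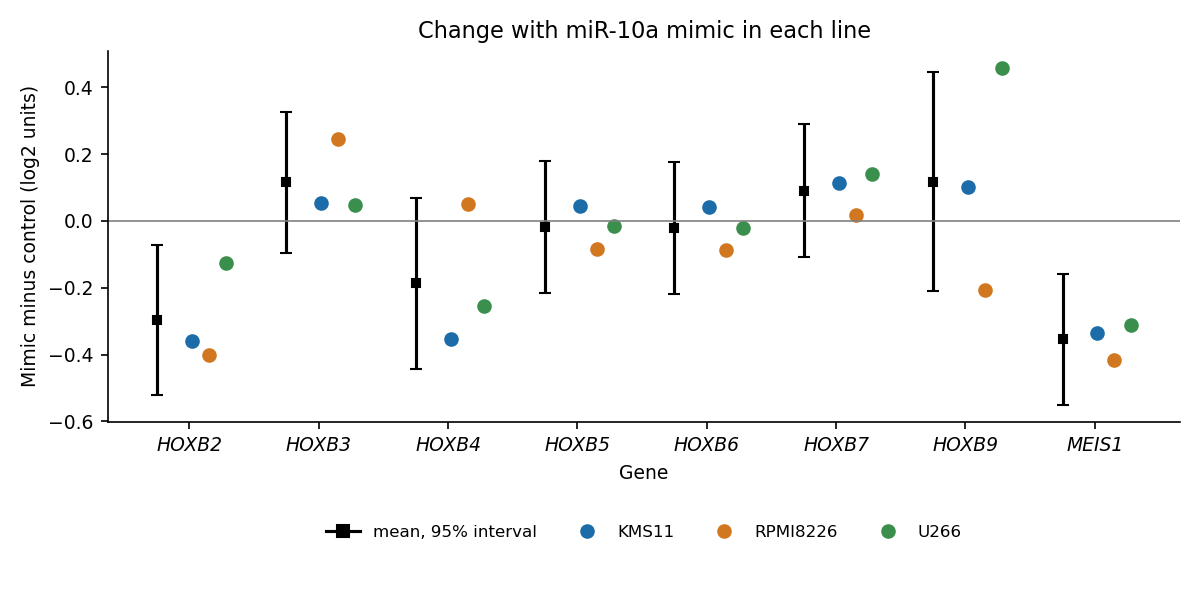
Mimic minus control in log2 units for the 8 genes, for each line (coloured points) and as the mean with its 95% interval from limma (black). MEIS1 lies at -0.31 to -0.42 in all 3 lines and HOXB2 at -0.13 to -0.40, while HOXB9 runs from -0.21 in RPMI8226 to 0.46 in U266; no change passed the adjusted threshold.

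Whether the change of a gene differed between lines was tested by comparing each line's change with that of the other 2. Limma called 0 of the 8 genes, and 0% of all genes, for KMS11, for RPMI8226 and for U266. HOXB9 came closest, with a change in U266 that was 0.51 log2 units above that of the other lines (95% interval -0.01 to 1.04; unadjusted p of 0.055, limma's adjusted p = 0.815) and a difference of -0.49 for RPMI8226 (-1.06 to 0.08; limma's adjusted p = 0.814). The test has 1 residual degree of freedom, so intervals are wide.

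Lists around these genes held no mimic call either, which follows from the 0 calls over all 14884 genes. Of the 4 named HOX genes reported as miR-10 targets (HOXB1, HOXB3, HOXD4 and HOXD10), 2 were lower and 2 higher, with a median change of 0.04. HOXB1 had the widest, 0.19, with limma's adjusted p = 0.967. Over the 27 HOX genes, 12 were lower and 15 higher with mimic. Among the 7 other TALE genes, 4 were lower and 3 higher, with a median of -0.01. In the leukaemia programme the widest change was that of CD34, 0.42 at a mean level near 3.2, and CDK6 followed at -0.19. Neither passed the adjusted threshold.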

How the data were processed

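For the 6 arrays the authors deposited log2 values of 53617 probe sets, made with Affymetrix Expression Console 1.3.0 per the submitters' processing notes. How background was corrected, whether and how arrays were normalized or centred, and the genome build were not found in the labels or headers. Gene names come from the platform annotation (16098 probe sets with 1 symbol, 37519 unnamed here), giving 14884 genes, all of which matched the RefSeq gene table. Of several probe sets of a gene (779 genes), that of the highest mean was kept. No filter on level was applied, because it would have dropped members.

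Limma 3.58.1 in R 4.3.3 (lmFit and eBayes, no trend) was fitted to all named genes with cell line as a block (2 residual and 4.12 prior degrees of freedom), with Benjamini-Hochberg adjustment, two-sided p-values and 0.05 as the threshold. Arrays were paired by the cell line in their labels: the 2 arrays of a line deviated together from their treatment means, with correlations of 0.932 in KMS11, 0.936 in RPMI8226 and 0.938 in U266 across genes. The fits were tested on simulated data with added shifts wider than any mimic change of the 8 genes. Recovery of changes as small as theirs was not tested. No 2 arrays were identical. The 8 genes and the gene lists were chosen with earlier results of these data known. Beside the members, listed genes could be named where they were called between lines, were among the 3 with the highest mean of their list or the 2 with the widest mimic change; genes of like profile were sought for members spanning at least 1 log2 unit. Alternatives covered the filter, a variance trend, array scaling, the probe set rule, all probe sets, the block and leaving out each line. MIR10A was not analysed here.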

Additional observations from a re-analysis of the deposited data

How the results depend on the processing

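Limma called 0 genes for the mimic under the 10 alternatives, the fit with no replicate block included. The count of genes called between lines was 7561 in the fit reported and 15912 when all probe sets were tested, which tests more features. It was 7726 with treatment left out of the model and from 5427 to 5593 when a line was left out. With a variance trend, 8 genes were called for a mimic effect particular to KMS11 and 1 for U266, against 0 in each without the trend, and the cause was not tested. Small mean changes turned sign when 1 line was left out: that of HOXB5 ran from -0.050 to 0.015 and that of HOXB6 from -0.053 to 0.010 (both positive without RPMI8226), and that of HOXB9 from -0.053 without U266 to 0.28 without RPMI8226. HOXB4 ran from -0.30 without RPMI8226 to -0.10 without KMS11, and HOXB3 from 0.050 without RPMI8226 to 0.15 without U266. For HOXB9, the KMS11 change minus that of the other lines was -0.03, and 0.0038 after quantile normalization. MEIS1 stayed between -0.38 and -0.32 and HOXB2 between -0.38 and -0.24. Among the 8 genes, leaving treatment out of the comparison of lines changed 1 call, that of MEIS1 between RPMI8226 and U266 (limma's adjusted p = 0.0839). With a line left out, 2 to 3 of the 8 were called between lines. The call of HOXB7 was lost without U266, where only KMS11 and RPMI8226 remained to be compared. The number of arrays limits the precision.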
